A study of Mus musculus with 3 samples.

Results

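Oxidative phosphorylation genes were examined in 3 RNA libraries of sorted mouse mammary cells. Members were the protein-coding mouse genes whose symbols begin with Ndufa, Ndufb, Ndufc, Ndufs or Ndufv and a number, Sdha to Sdhd, the Uqcr genes, the Cox genes of the families 4 to 8, the Atp5 genes, and the mitochondrially encoded Nd, Cytb, Co and Atp genes. This gave 96 of 21786 protein-coding genes, 83 of them nuclear and 13 mitochondrially encoded. The nuclear genes comprised 36 of complex I, 4 of complex II, 8 of complex III, 18 of complex IV and 17 of complex V, and the mitochondrial genome added 7, 0, 1, 3 and 2. Symbols alone decided which genes were members, and no measured value entered the rule. The choice was made with earlier results of these data known.

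The study sorted mouse mammary cells labelled as positive for PROCR, the protein C receptor, from a gate of cells positive for EpCAM with high CD49f. The CD36+ library came from cells positive for CD36 and negative for podoplanin (PDPN), and its title gives it as Cdh5 positive. The double-negative library came from cells negative for both CD36 and PDPN, again given as Cdh5 positive. The PDPN+ library came from cells negative for CD36 and positive for PDPN, given as Cdh5 negative. The labels name no strain, age, genotype or treatment, and neither the number of mice nor of cells behind a library is given in the sources used here. Each population had 1 library, so no value carries a replicate error, no test between populations was possible, and every difference compares these libraries and not the populations.

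Oxidative phosphorylation passes electrons from NADH through complex I, or from succinate through complex II, to ubiquinone, on to complex III, cytochrome c and complex IV, where oxygen is reduced. Complexes I, III and IV pump protons across the inner mitochondrial membrane, and complex V, the ATP synthase, uses the gradient to make ATP. Complexes I, III, IV and V combine nuclear and mitochondrially encoded subunits, whereas complex II is wholly nuclear. Endothelial cells are known to draw much of their ATP from glycolysis, and the respiratory chain still serves their redox balance and growth.

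The labels give all 3 populations as epithelial, and the markers went against this for the CD36+ and double-negative libraries. The 10 endothelial markers summed to 5556, 3755 and 128 CPM, a count scaled to library size, in CD36+, double-negative and PDPN+ cells. Basal epithelial markers, 8 in number, summed to 96.6, 332 and 5546 CPM in CD36+, double-negative and PDPN+ cells. Cd36 stood at 4766, 1523 and 45.1 CPM in CD36+, double-negative and PDPN+ cells, so it was abundant in the library sorted as CD36 negative and PDPN negative. Erythroid markers summed to 106 CPM in the CD36+ library and to 0.0198 CPM in double-negative and 0.0135 CPM in PDPN+ cells. The sums of fibroblast markers were 116, 61.1 and 611 CPM in CD36+, double-negative and PDPN+ cells, and those of luminal epithelial markers 453, 395 and 766 CPM. Pericyte markers summed to 259, 189 and 70.6 CPM and Schwann cell markers to 7.01, 10.6 and 66.9 CPM in CD36+, double-negative and PDPN+ cells. The part of any of these cells in the results was not tested. Adipocyte, brown fat, skeletal muscle and immune markers summed to at most 15.6 CPM in any library, with the brown fat gene Ucp1 at 0 counts in all 3. The libraries held 67675778, 51138993 and 63871266 estimated counts in CD36+, double-negative and PDPN+ cells. Which of the 2 library kits and instruments served which library is not given, so kit, cell type and population cannot be told apart in any comparison.

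Levels of a gene are given as CPM after TMM scaling, a library scaling based on the genes that differ least, and as the deposited TPM, which also corrects for transcript length. In bulk RNA, a lower share of cells of one type and less RNA per cell cannot be told apart. Of the 83 nuclear genes, 79, 79 and 78 had counts in CD36+, double-negative and PDPN+ cells, and 74, 75 and 75 reached 10 CPM. Cox6a2, Cox8b and Cox8c, isoform genes known from muscle or testis, had 0 counts in all 3 libraries. The median TPM of the nuclear genes was 157, 174 and 193 in CD36+, double-negative and PDPN+ cells, whereas that of all coding genes with at least 10 CPM was 26.2, 28.2 and 32.8. Among the 1000 coding genes with the highest TPM stood 46, 47 and 51 nuclear members. The chain was thus among the abundant parts of the measured RNA in all 3 libraries.

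**Figure D1:**
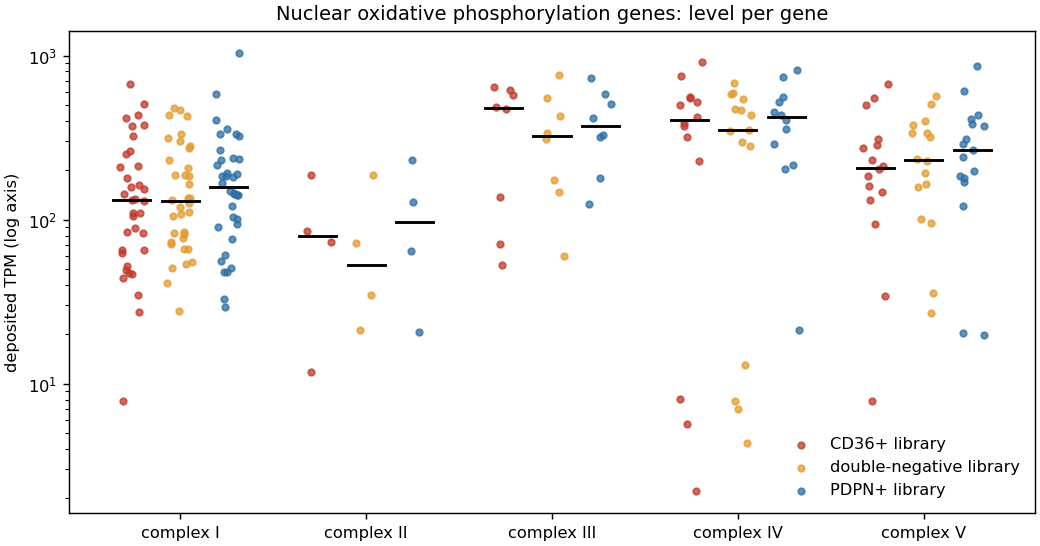
Deposited TPM (log axis) of each nuclear oxidative phosphorylation gene with at least 1 TPM, by complex and library, with 1 point per gene and a bar at the median of the points. Over all nuclear genes the median was 157, 174 and 193 TPM in CD36+, double-negative and PDPN+ cells, and the lowest points belong to complexes IV and V.

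Levels of the nuclear genes were closer across the libraries than those of other genes. A mean of 10 CPM or more was found for 74, and 53 of them (71.6%) lay within 2-fold over all 3 libraries, against 31.5% of 7459 other coding genes at that level. The gap between the highest and lowest library had a median of 1.62-fold in the members and 2.94-fold in the other genes. Spread depended on level, so the comparison was also made by level. Between 50 and 200 CPM, 41 of 53 members (77.4%) lay within 2-fold, against 43.1% of 2339 other coding genes. From 10 to 50 CPM it was 7 of 16 members (43.8%) and 19.4% of 4180 others. All 5 members above 200 CPM lay within 2-fold, against 56.8% of 940 others. A mean lets in genes that are high in a single library. Among genes with at least 10 CPM in all 3 libraries, 71.6% of the 74 members and 47.7% of all 4897 coding genes lay within 2-fold, with median gaps of 1.62-fold and 2.065-fold. These shares describe 3 libraries and carry no test.

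A gene was counted as apart where it differed at least 2-fold and reached 10 CPM in the higher library. Against the PDPN+ library, 7 of 75 nuclear members were higher in the CD36+ library, where 25.0% of the coding genes measured were higher, and 7 were lower, where 28.6% of coding genes were lower. In the double-negative library, 10 of 76 were higher than in the PDPN+ library (24.2% of coding genes) and 5 were lower (31.4%). In CD36+ against double-negative cells, 1 of 75 was higher (23.4% of coding genes) and 5 were lower (19.6%). The median log2 ratio of the members was 0.19 for CD36+ against PDPN+, 0.18 for double-negative against PDPN+ and 0.10 for CD36+ against double-negative. The same medians over all coding genes were -0.05, -0.18 and 0.14.

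The sign of such medians depended on how the libraries were scaled. Compared with TMM, total counts moved the median ratio of coding genes by -0.40, -0.23 and -0.17 in the 3 comparisons, upper quartile scaling by 0.27, 0.28 and -0.01, and the deposited TPM by -0.48, -0.35 and -0.13. The median of the nuclear members became -0.22, -0.05 and -0.07 with total counts and -0.26, -0.24 and -0.02 with TPM. A direction is therefore described below as holding on all 5 scales only where TMM, total counts, upper quartile, DESeq2 size factors and TPM gave the same one.

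**Figure D2:**
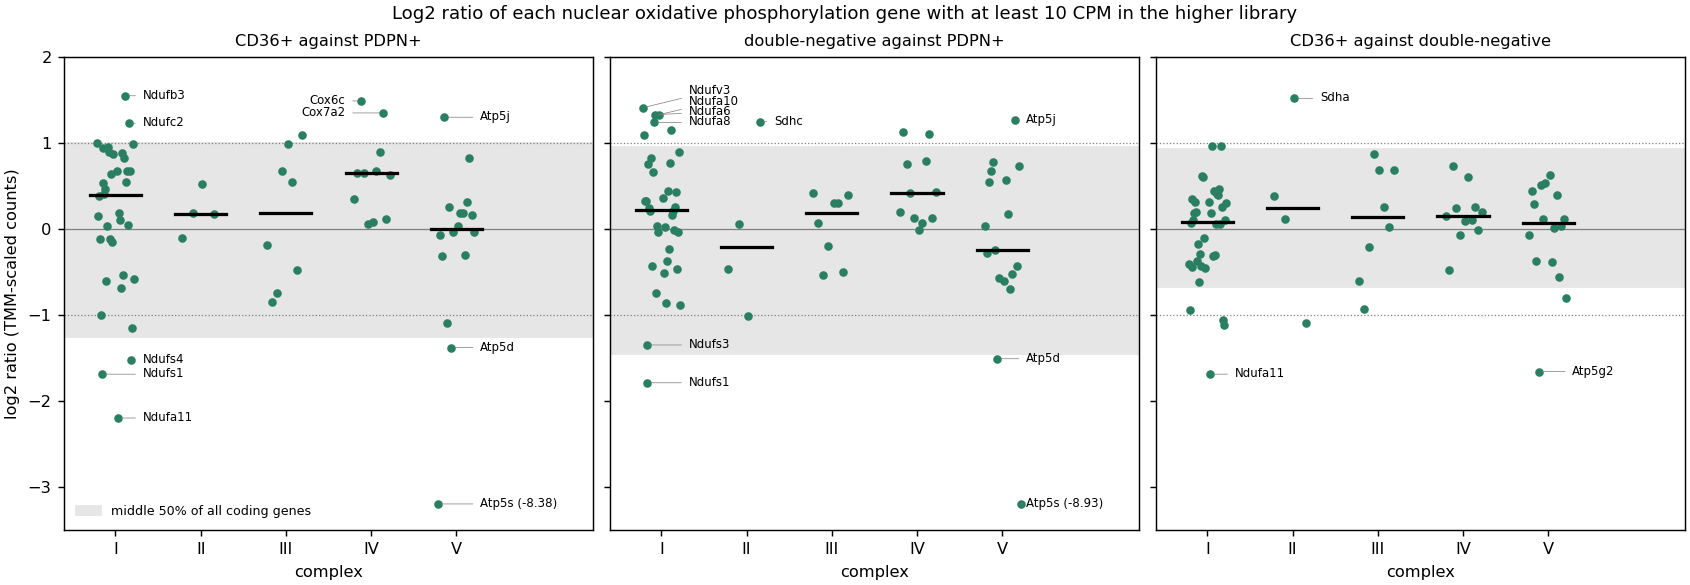
Log2 ratio (TMM-scaled counts) of each nuclear gene with at least 10 CPM in the higher library, by complex, in the 3 comparisons, with 1 point per gene, a bar at the median of a complex, dotted lines at 2-fold and a grey band over the middle 50% of all coding genes. Most members lie inside the band. Complex IV, grouped by symbol and so without Ndufa4, has no plotted member lower with CD36+ than PDPN+ cells. Atp5s, far below the rest at -8.38 and -8.93, is drawn at the bottom of the axis.

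Complex I takes electrons from NADH in an arm that reaches into the matrix and pumps protons in a membrane arm. Ndufs1, a core subunit that carries iron-sulfur clusters in the matrix arm (chromosome 1, 63143596 to 63176833, minus strand of mm10), stood at 45.6, 42.5 and 147 CPM in CD36+, double-negative and PDPN+ cells. The CD36+ and double-negative libraries lay close together, well under the PDPN+ library. Ndufs1 was 3.23-fold lower with CD36+ than PDPN+ cells (95% counting interval 3.09 to 3.37) and 3.46-fold lower with double-negative than PDPN+ cells (3.31 to 3.63). Ndufs3, a core subunit near the ubiquinone site, was at 36.4, 28.6 and 72.8 CPM in CD36+, double-negative and PDPN+ cells, and was 2.54-fold lower with double-negative than PDPN+ cells (2.40 to 2.70). Its ratio of CD36+ against PDPN+ was just inside the limit, at 1.999-fold lower (1.902 to 2.103). Both genes were lower than in the PDPN+ library on all 5 scales.

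The order differed among the other core subunits. Ndufv1, which binds NADH and flavin, stood at 31.9, 61.0 and 28.8 CPM in CD36+, double-negative and PDPN+ cells. It was 2.12-fold higher with double-negative than PDPN+ cells (2.01 to 2.24), and higher there on all 5 scales. Ndufv2, its iron-sulfur partner, stood at 61.4, 49.8 and 92.0 CPM in CD36+, double-negative and PDPN+ cells. Like Ndufs1 and Ndufs3, it was lower than in PDPN+ cells on all 5 scales, within 2-fold by TMM. Ndufs7 and Ndufs8, which lie with Ndufs3 in the part of the arm that reduces ubiquinone, lay within 2-fold. Ndufs8 came closest to the limit, at 93.7, 87.5 and 47.1 CPM in CD36+, double-negative and PDPN+ cells, a log2 ratio of 0.99 for CD36+ against PDPN+. Of the 7 core genes, 1 was counted as apart in CD36+ against PDPN+, 3 in double-negative against PDPN+ and 0 in CD36+ against double-negative. Of all coding genes, 25.0% were higher and 28.6% lower in the first comparison. The shares were 24.2% and 31.4% in the second, and 23.4% and 19.6% in the last.

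Accessory subunits surround the core and are needed for assembly and stability. Ndufa11, a membrane-arm accessory subunit (chromosome 17, 56717767 to 56722141, plus strand), had the widest gap of all members averaging 10 CPM or more. It stood at 17.7, 57.1 and 81.5 CPM in CD36+, double-negative and PDPN+ cells, so the CD36+ library was the low one. The ratio was 4.6-fold lower in CD36+ than in PDPN+ (4.31 to 4.92) and 3.22-fold lower in CD36+ than in double-negative (3.001 to 3.462), both on all 5 scales. Ndufs4, an accessory subunit of the matrix arm whose loss in people causes Leigh syndrome, followed the same order at 18.9, 39.4 and 54.6 CPM in CD36+, double-negative and PDPN+ cells. Ndufs6, a zinc-binding accessory subunit beside it, stood at 15.6, 33.9 and 34.6 CPM in CD36+, double-negative and PDPN+ cells. Both were low in the CD36+ library: Ndufs4 was 2.08-fold (1.93 to 2.24) and Ndufs6 2.18-fold (2.01 to 2.36) lower than in the double-negative library.

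Other accessory genes were low in the PDPN+ library. Ndufb3, a small membrane-arm subunit, stood at 32.5, 24.5 and 11.03 CPM in CD36+, double-negative and PDPN+ cells, and was 2.94-fold higher in CD36+ than in PDPN+ (2.71 to 3.20). Ndufv3, an accessory subunit beside the NADH site, stood at 22.8, 30.4 and 11.4 CPM in CD36+, double-negative and PDPN+ cells, and Ndufa10, a membrane-arm subunit, at 56.8, 78.3 and 31.1 CPM. These genes were lowest in the PDPN+ library and, unlike Ndufb3, highest in the double-negative library. Against PDPN+, the double-negative library was 2.67-fold higher for Ndufv3 (2.45 to 2.91) and 2.52-fold higher for Ndufa10 (2.40 to 2.66), on all 5 scales. Ndufa6, at 73.8, 99.4 and 39.4 CPM in CD36+, double-negative and PDPN+ cells, and Ndufa8, at 196, 240.1 and 102 CPM, also passed 2-fold in that comparison, but not on TPM. Ndufc2 stood at 67.7, 34.6 and 28.9 CPM in CD36+, double-negative and PDPN+ cells, with the CD36+ library apart at 2.34-fold over PDPN+ (2.22 to 2.47), though under 2-fold on total counts and TPM.

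Ndufa3, which ranked among the 5 largest ratios of CD36+ against double-negative, stayed within 2-fold at 25.3, 12.97 and 23.6 CPM in CD36+, double-negative and PDPN+ cells. Of the 29 accessory genes, 3 were higher and 3 lower in CD36+ against PDPN+, beside 25.0% and 28.6% of all coding genes. In double-negative against PDPN+ it was 5 and 0, beside 24.2% and 31.4%. In CD36+ against double-negative it was 0 and 3, beside 23.4% and 19.6%. Ndufa4 had the highest TPM of the Nduf genes, at 670, 480 and 1034 in CD36+, double-negative and PDPN+ cells. Its name places it in complex I, although its product is now assigned to complex IV.

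Complex II oxidises succinate, and its 4 genes did not share one order of the libraries. Sdha, the flavin subunit that binds succinate (chromosome 13, 74322254 to 74350280, minus strand), stood at 138, 48.1 and 96.6 CPM in CD36+, double-negative and PDPN+ cells. Sdhb, the iron-sulfur subunit, was even at 162, 149.5 and 143 CPM in CD36+, double-negative and PDPN+ cells. Sdhc, a membrane anchor (chromosome 1, 171127165 to 171150603, minus strand), stood at 15.9, 33.9 and 14.2 CPM in CD36+, double-negative and PDPN+ cells, and Sdhd, the other anchor, at 81.0, 62.3 and 86.5 CPM. The double-negative library was thus lowest for Sdha and highest for Sdhc. Sdha was 2.88-fold higher in CD36+ than in double-negative (2.75 to 3.01), and Sdhc was 2.13-fold lower (1.96 to 2.31), both by at least 2-fold on all 5 scales. Against the PDPN+ library, the double-negative library was 2.01-fold lower for Sdha (1.92 to 2.10) and 2.39-fold higher for Sdhc (2.21 to 2.58), with these directions on all 5 scales. Sdhc in CD36+ against PDPN+ had a log2 ratio of 0.17 by TMM and -0.82 by TPM, so its direction there depended on the unit.

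Complex II made up 4.73%, 3.81% and 4.71% of the counts of all nuclear members in CD36+, double-negative and PDPN+ cells. By TPM it made up 1.86%, 1.70% and 2.12%. Both shares were lowest in the double-negative library. The 4 listed assembly factors of complex II summed to 71.5, 19.8 and 56.3 CPM in CD36+, double-negative and PDPN+ cells. Sdhaf2, which attaches flavin to Sdha, stood at 40.6, 1.33 and 27.9 CPM in CD36+, double-negative and PDPN+ cells, and Sdhaf1, which serves the iron-sulfur subunit, at 24.4, 9.69 and 19.7 CPM. Both were lowest in double-negative cells, whereas Sdhaf4 was highest there, at 6.44, 8.72 and 3.03 CPM in CD36+, double-negative and PDPN+ cells. Sdhaf3 had 0 counts in CD36+ cells, 1 in double-negative cells and 423 in PDPN+ cells, so the list did not share one order.

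Complex III passes electrons from ubiquinol to cytochrome c, and only Uqcrh of its 8 nuclear genes was counted as apart in any comparison. Uqcrh, the hinge protein that contacts cytochrome c1, stood at 212, 131 and 99.95 CPM in CD36+, double-negative and PDPN+ cells. It was 2.12-fold higher in CD36+ than in PDPN+ (2.06 to 2.18), although not by 2-fold on total counts or TPM. In that comparison 25.0% of all coding genes were higher and 28.6% lower. Uqcrc1 and Uqcrc2, the core proteins, were instead highest in PDPN+ cells, at 180, 208 and 302 CPM in CD36+, double-negative and PDPN+ cells for Uqcrc1 and 81.5, 80.4 and 113 CPM for Uqcrc2. This held on all 5 scales, within 2-fold by TMM. Uqcrfs1, the Rieske iron-sulfur protein, was low in the CD36+ library, at 75.4, 143 and 136 CPM in CD36+, double-negative and PDPN+ cells. It was 1.90-fold lower there than in the double-negative library (1.83 to 1.97).

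The smaller subunits differed in which library was highest. Uqcrb stood at 194, 163 and 132.5 CPM in CD36+, double-negative and PDPN+ cells, with at most 0.0969% of its combined counts in annotated near-identical copies. Uqcr11 stood at 136, 74.3 and 85.2 CPM in CD36+, double-negative and PDPN+ cells, a log2 ratio of 0.87 for CD36+ against double-negative. Uqcrq was highest in double-negative cells, at 125, 190.3 and 143 CPM in CD36+, double-negative and PDPN+ cells. Cyc1, the cytochrome c1 subunit that the symbol rule does not take in, stood at 101, 38.0 and 65.5 CPM in CD36+, double-negative and PDPN+ cells. It was lowest in the double-negative library.

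Complex IV reduces oxygen, and its nuclear genes lay mostly above the PDPN+ level by TMM, but not on every scale. All 11 with at least 10 CPM had a log2 ratio above 0 for CD36+ against PDPN+ by TMM, with a median of 0.65 and a range of 0.06 to 1.49. For double-negative against PDPN+ it was 10 of 11, with a median of 0.42. Ndufa4, placed in complex I by its symbol, is left out of the complex IV counts, shares and sums given here. Its log2 ratios were -0.12 and -0.74 in these comparisons by TMM, both below 0. With total counts 7 and 6 of the 11 lay above 0 in these comparisons, and by TPM 7 and 6. Over all coding genes, 4209 of 8685 and 3942 of 8693 lay above 0 in these comparisons. The complex made up 24.1% and 23.8% of nuclear member counts in the CD36+ and double-negative libraries and 18.9% in the PDPN+ library. By TPM these shares were 28.75%, 27.4% and 23.9% in CD36+, double-negative and PDPN+ cells. A share among the members does not depend on library scaling, and both units gave the lower share in the PDPN+ library. The summed level was 2025, 1834 and 1364 CPM in CD36+, double-negative and PDPN+ cells, but 5540, 5081 and 5015 TPM.

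**Figure D3:**
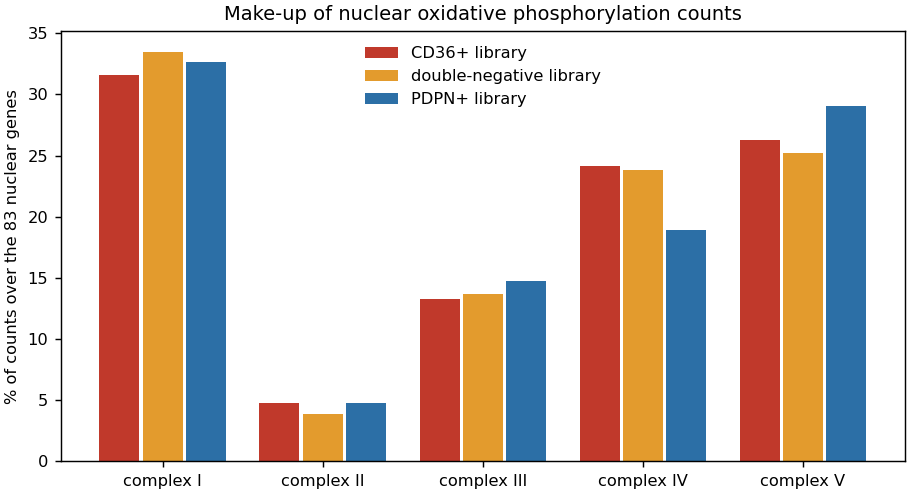
Percent of the counts over the 83 nuclear oxidative phosphorylation genes that fell in each complex, with 1 bar per library. Genes are grouped by symbol, so Ndufa4 counts under complex I. Complex IV took 24.1% and 23.8% in the CD36+ and double-negative libraries and 18.9% in the PDPN+ library, and complex V took 26.3%, 25.2% and 29.0%.

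Cox6c, a small regulatory subunit (chromosome 15, 35925886 to 35938246, minus strand), carried the largest gap among the complex IV genes with at least 10 CPM. It stood at 264, 159 and 94.0 CPM in CD36+, double-negative and PDPN+ cells. The ratio was 2.81-fold higher in CD36+ than in PDPN+ (2.73 to 2.89), at least 2-fold on all 5 scales, and 1.66-fold higher in CD36+ than in double-negative (1.62 to 1.71). Cox7a2, the isoform found in most tissues, stood at 163, 136 and 63.6 CPM in CD36+, double-negative and PDPN+ cells. It was 2.56-fold higher in CD36+ (2.47 to 2.65) and 2.14-fold higher in double-negative (2.06 to 2.22) than in PDPN+, but under 2-fold on total counts and TPM. Cox7a2l, which joins complexes III and IV into supercomplexes, was highest in the double-negative library, at 184.5, 258 and 118 CPM in CD36+, double-negative and PDPN+ cells. It was 2.19-fold higher there than in PDPN+ (2.13 to 2.25), but under 2-fold on total counts and TPM.

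Several complex IV subunits exist as isoform genes, and the forms known from muscle, lung or testis were low or without counts. Cox4i1 stood at 282, 265 and 266.5 CPM in CD36+, double-negative and PDPN+ cells. Cox4i2, the form known from lung and induced by low oxygen, had 0 counts with CD36+ cells, 100 with double-negative cells and 1 with PDPN+ cells. It was at least 39.1-fold lower in CD36+ than in double-negative cells at a floor of 3 counts per library, and 146.5-fold higher in double-negative than in PDPN+ cells (25.7 to 5843, from 1 count). Cox7a1, the heart and skeletal muscle form, had 63, 71 and 0 counts in CD36+, double-negative and PDPN+ cells, so CD36+ was at least 26.2-fold and double-negative at least 34.7-fold higher than the PDPN+ library at that floor.

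Cox7b2 had 42, 197 and 0 counts in CD36+, double-negative and PDPN+ cells, against 106, 107 and 97.8 CPM for Cox7b. Cox6b2, a form known from testis, had 158, 119 and 342 counts in CD36+, double-negative and PDPN+ cells, which is 2.67, 2.36 and 4.62 CPM beside 180.4, 169 and 97.4 CPM for Cox6b1. Cox6b2 was thus detected in all 3 libraries and the other minor isoforms in part of them, all under 5 CPM. Cox6a1, at 179, 152 and 114 CPM in CD36+, double-negative and PDPN+ cells, and Cox8a, at 104, 90.4 and 66.9 CPM, were the only measured genes of their groups, since Cox6a2, Cox8b and Cox8c had no counts. Skeletal muscle markers summed to 0.389, 7.78 and 1.18 CPM in CD36+, double-negative and PDPN+ cells. Mylpf alone supplied 7.45 CPM of the double-negative sum and had 0 counts in the CD36+ and PDPN+ libraries. Acta1, Mb and Tnnt3 had 0 counts in the double-negative library. The part of skeletal muscle cells in the isoform counts was not tested.

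Complex V comprises the catalytic F1 head, a peripheral stalk that holds it, and the membrane part with a ring of c subunits. Atp5b, the catalytic beta subunit, stood at 478.5, 332 and 493 CPM in CD36+, double-negative and PDPN+ cells, and Atp5a1, the alpha subunit, at 273, 176 and 267 CPM. Both were lowest in the double-negative library, within 2-fold. Atp5d, the delta subunit of the head's central stalk (chromosome 10, 80138632 to 80145818, plus strand), measured 23.2, 21.3 and 60.6 CPM in CD36+, double-negative and PDPN+ cells. It was 2.61-fold lower in CD36+ (2.46 to 2.78) and 2.85-fold lower in double-negative (2.66 to 3.05) than in PDPN+, on all 5 scales. The gamma and epsilon genes Atp5c1 and Atp5e lay within 2-fold, at 141, 184 and 124 CPM in CD36+, double-negative and PDPN+ cells and at 65.1, 64.5 and 57.3 CPM.

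In the peripheral stalk, Atp5j (chromosome 16, 84827866 to 84835625, minus strand) went the other way. It stood at 229, 224 and 93.0 CPM in CD36+, double-negative and PDPN+ cells, which made CD36+ 2.46-fold (2.39 to 2.54) and double-negative 2.41-fold (2.34 to 2.49) higher than PDPN+ cells. By TPM the log2 ratios were 0.95 for CD36+ and 0.98 for double-negative against PDPN+, just under 2-fold, and with total counts that of CD36+ was 0.90. The 5' exons of Atp5j and of Gabpa, a transcription factor gene on the opposite strand, overlap in the annotation. Gabpa stood at 141, 87.3 and 34.6 CPM in CD36+, double-negative and PDPN+ cells, and reads from the overlap cannot be assigned to a strand, since the strand setting is not given. The other stalk genes Atp5f1, Atp5h and Atp5o lay within 2-fold.

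The ring's c subunit is encoded by 3 genes with the same mature product. Atp5g3 stood at 71.0, 105 and 151 CPM in CD36+, double-negative and PDPN+ cells, Atp5g1 at 89.0, 67.2 and 109 CPM, and Atp5g2 at 3.89, 12.3 and 7.18 CPM. The PDPN+ library was highest for Atp5g3 and Atp5g1, and the double-negative library for Atp5g2. Atp5g3 was 2.13-fold lower in CD36+ than in PDPN+ (2.06 to 2.21), but under 2-fold with upper quartile scaling. Atp5g2 was 3.17-fold lower in CD36+ than in double-negative (2.72 to 3.71), from 230 against 622 counts. By TPM, Atp5g1 stood at 203.7, 158 and 379.9 and Atp5g3 at 148, 235 and 433, so Atp5g1 led in CD36+ cells and Atp5g3 in double-negative and PDPN+ cells.

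Atp5s, which encodes coupling factor B and is not counted among the structural subunits, was near absent from 2 libraries. It had 1 count with CD36+ cells, 0 with double-negative cells and 1154 with PDPN+ cells, where it reached 15.6 CPM and 19.9 TPM. The ratio was 924-fold lower in CD36+ than in PDPN+ (166 to 36517, from 1 count), and at least 263-fold lower in double-negative than in PDPN+ at a floor of 3 counts. Libraries with at most 3 counts also occurred elsewhere. Among 7459 other coding genes averaging 10 CPM or more, 496 (6.65%) had at most 3 counts in some library. Of the 74 nuclear members at that level, 0 did. Atp5s averaged 5.21 CPM and so lies under that level, and these shares are not matched to it.

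**Figure D4:**
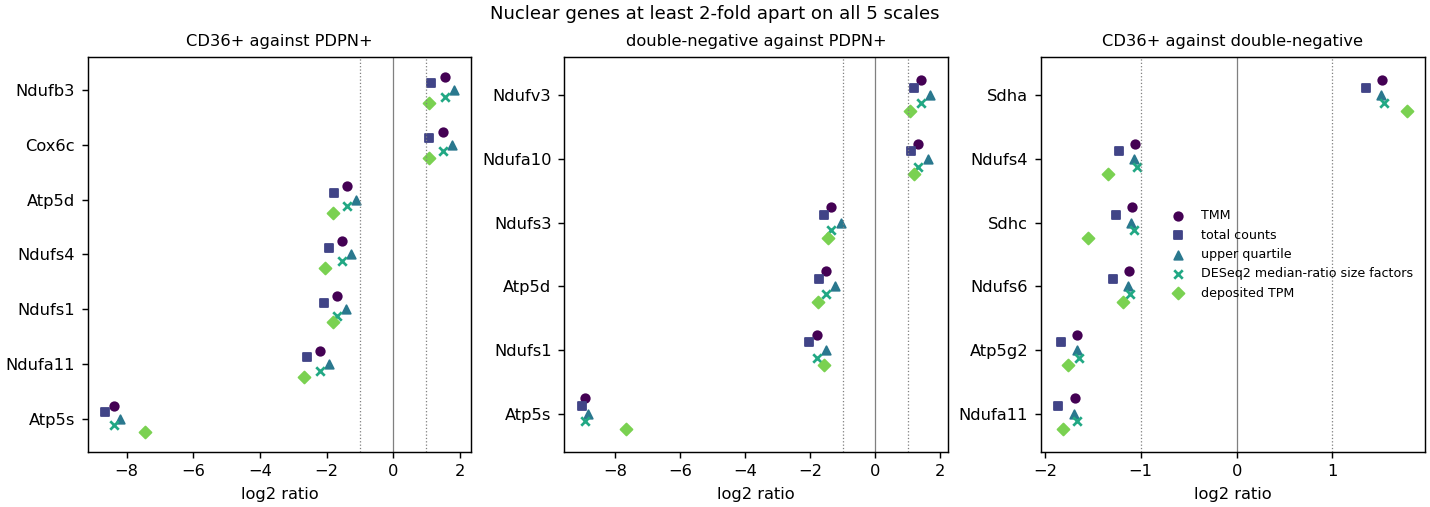
Log2 ratios of the nuclear genes that were at least 2-fold apart on all 5 scales, with 1 marker per scale and dotted lines at 2-fold, in the 3 comparisons. The markers of a gene keep one side of 0, and Ndufs1 and Atp5d lie left of the line against PDPN+ in the CD36+ and double-negative panels, with log2 ratios of -1.69 and -1.79 for Ndufs1 by TMM.

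With the requirement of 2-fold on all 5 scales, fewer members remained, as fewer coding genes did. In CD36+ against PDPN+ they were Ndufb3 and Cox6c higher (17.8% of coding genes) and Ndufa11, Ndufs1, Ndufs4, Atp5d and Atp5s lower (24.4%). In double-negative against PDPN+ they were Ndufa10 and Ndufv3 higher (18.7%) and Ndufs1, Ndufs3, Atp5d and Atp5s lower (26.1%). In CD36+ against double-negative they were Sdha higher (18.4%) and Ndufa11, Ndufs4, Ndufs6, Sdhc and Atp5g2 lower (18.2%). The 2 comparisons against PDPN+ share that library. A high or low value in it would enter both.

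Promoters of nuclear respiratory genes are known for sites of NRF1 and of ETS factors such as GABP, so both motifs were looked up in the 250 bases before the RefSeq start (GRCm38.p6). The motifs were chosen after the values were seen. A RefSeq promoter was found for 68 of the 83 nuclear members by symbol or synonym. On either strand, an NRF1-type motif (GCGCA, then any base, then GCGC) occurred in 13 of these (19.1%), against 4.23% of 27025 genes, and an ETS-type motif (CCGGAAG) in 12 (17.6%), against 7.83%. Those 27025 are all genes with a RefSeq promoter entry, whatever their level here. The shares were thus not compared among genes of like level, and nothing particular to the members is read from them. Of the 6 members apart in CD36+ against double-negative cells, 5 had an entry and 4 held the NRF1-type letters, and these are the letters printed here for the 4 genes, with 10 bases on each side and the match in capitals. Sdha holds 3 matches, at 98, 55 and 10 bases before the start. Its first lies at chr13:74350319-74350348, the second at chr13:74350276-74350305 and the last at chr13:74350231-74350260, all on the minus strand. The single matches lie at chr17:56717692-56717721 (plus strand) for Ndufa11, 60 bases before the start, at chr13:73328479-73328508 (minus strand) for Ndufs6, 16 bases before, and at chr15:102671070-102671099 (minus strand) for Atp5g2, 42 bases before.
Sdha, first match: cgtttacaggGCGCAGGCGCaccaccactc
Sdha, second match: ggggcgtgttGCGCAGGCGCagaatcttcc
Sdha, last match: gcgactcggtGCGCAAGCGCagtctgtcgc
Ndufa11: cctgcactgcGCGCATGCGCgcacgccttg
Ndufs6: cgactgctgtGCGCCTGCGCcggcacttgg
Atp5g2: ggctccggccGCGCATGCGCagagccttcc
The Ndufs6 match reads as the motif on the opposite strand. These 4 genes were not alike in direction: Sdha was higher and Ndufa11, Ndufs6 and Atp5g2 were lower with CD36+ than double-negative cells. In the annotation, the windows of Sdha, Ndufa11 and Ndufs6 overlap exons of Ccdc127, Vmac and Mrpl36 on the opposite strand. The windows of Atp5g2, Ndufs6 and Sdha also overlap exons of these genes themselves, since GENCODE annotates a start upstream of the RefSeq start. The matches of Atp5g2 and Ndufs6 and the last match of Sdha lie inside the genes as annotated there. Of the members apart in the other comparisons, 2 of 12 with an entry held the NRF1-type letters in CD36+ against PDPN+, and 2 of 13 in double-negative against PDPN+. The ETS-type letters were likewise held by 2 of these 12 and 2 of these 13. None of the members apart in CD36+ against double-negative cells held the ETS-type letters. A match is a run of letters and not a shown binding site.

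The 13 mitochondrially encoded genes are transcribed together from the mitochondrial genome and cut into separate RNAs. They took 1.78%, 1.83% and 1.91% of all gene counts in CD36+, double-negative and PDPN+ cells (exact 95% counting intervals 1.774 to 1.780, 1.825 to 1.832 and 1.905 to 1.912), and 4.81%, 4.96% and 5.35% of the TPM. None of the 12 with at least 10 CPM was 2-fold apart in any comparison. All coding genes had 25.0% higher and 28.6% lower in CD36+ against PDPN+. They had 24.2% and 31.4% in double-negative against PDPN+, and 23.4% and 19.6% in CD36+ against double-negative. The widest gap of all 13 was 1.41-fold, for mt-Nd3 at 5.66, 4.001 and 4.06 CPM in CD36+, double-negative and PDPN+ cells, and the median gap between highest and lowest library was 1.24-fold. Median log2 ratios were 0.23, 0.02 and 0.13 in the 3 comparisons by TMM, and became -0.17, -0.21 and -0.05 with total counts and -0.25, -0.35 and 0.03 by TPM.

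**Figure D5:**
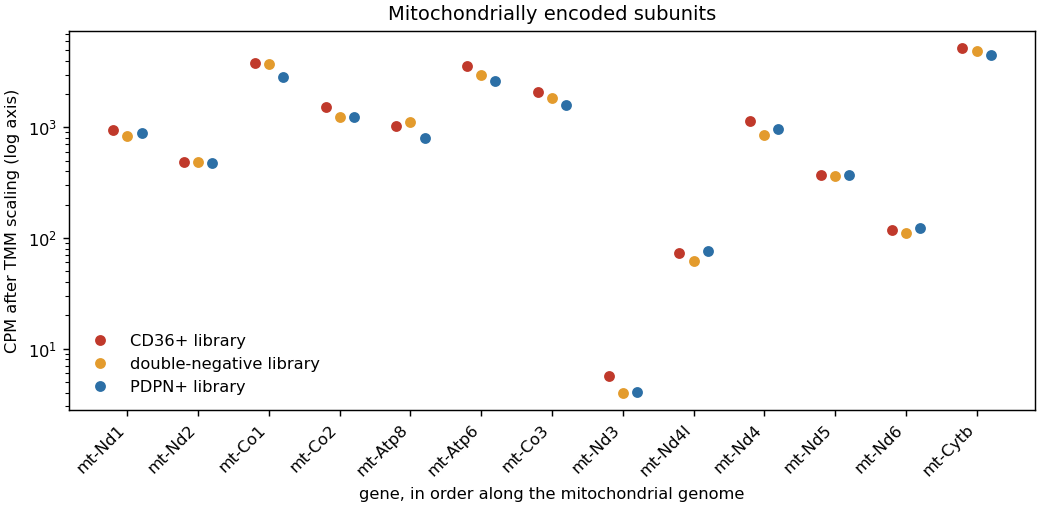
CPM after TMM scaling (log axis) of the 13 mitochondrially encoded genes in the order of the mitochondrial genome, with 1 point per library. For each gene the 3 points lie within 1.41-fold, while the genes span from mt-Nd3 at 4.001 to 5.66 CPM to mt-Cytb at 4461 to 5161 CPM.

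Of the complex I subunits on the mitochondrial genome, mt-Nd4 stood at 1150, 852 and 966 CPM in CD36+, double-negative and PDPN+ cells and mt-Nd1 at 942, 831.5 and 890.3 CPM. The genes mt-Nd2, at 487.5, 483 and 478 CPM in CD36+, double-negative and PDPN+ cells, and mt-Nd5, at 369, 363.5 and 371 CPM, were the evenest of the set. The light-strand gene mt-Nd6 stood at 118, 111 and 123 CPM in CD36+, double-negative and PDPN+ cells, and mt-Nd4l at 72.7, 62.1 and 76.0 CPM. No library was the highest for all complex I genes.

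The gene of complex III, mt-Cytb, had the most counts of the set, at 5161, 4862 and 4461 CPM in CD36+, double-negative and PDPN+ cells. Among the catalytic subunits of complex IV, mt-Co1 stood at 3814, 3753 and 2849 CPM in CD36+, double-negative and PDPN+ cells, mt-Co2 at 1525, 1252 and 1235 CPM, and mt-Co3 at 2065, 1835 and 1605 CPM. These 4 genes were lowest in PDPN+ cells by TMM, but by TPM mt-Cytb, mt-Co2 and mt-Co3 were highest there. The membrane subunit of complex V, mt-Atp6, stood at 3585, 2994 and 2619 CPM in CD36+, double-negative and PDPN+ cells, and mt-Atp8 at 1018, 1117 and 809 CPM. The mt-Atp8 and mt-Atp6 reading frames overlap, as do those of mt-Nd4l and mt-Nd4, so reads in the overlaps were divided by the authors' estimation.

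Nuclear copies of mitochondrial DNA limited 2 of these values. Annotated copies with at least 95% identity over at least 50% of the gene were found for 8 mitochondrially encoded and 7 nuclear members. The copy Gm10925 held 23.6%, 36.2% and 30.1% of the counts it shared with mt-Atp6 in CD36+, double-negative and PDPN+ cells, and Gm28438 held 77.5%, 76.2% and 76.2% of those shared with mt-Nd3. With copies added, mt-Atp6 stood at 4693, 4691 and 3747 CPM in CD36+, double-negative and PDPN+ cells, so its gap between the CD36+ and double-negative libraries closed to a log2 ratio of 0.00, from 0.26 without copies. Atp5l had the largest share among nuclear members, at 9.68%, 13% and 10.7% in CD36+, double-negative and PDPN+ cells.

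Counts of the mitochondrially encoded members were 2.42, 2.40 and 2.28 times those of the nuclear members in CD36+, double-negative and PDPN+ cells (counting intervals 2.41 to 2.43, 2.39 to 2.41 and 2.28 to 2.29). The near-identical copies are not in these counts. For the 8 mitochondrially encoded members with copies, they held 8.35%, 13.7% and 10.8% of combined counts in CD36+, double-negative and PDPN+ cells. The order of the CD36+ and double-negative ratios by counts therefore depends on whether copies are added. By TPM the ratios were 2.49, 2.68 and 2.55 in CD36+, double-negative and PDPN+ cells. The lowest ratio belonged to PDPN+ cells by counts and to CD36+ cells by TPM. The short gene mt-Atp8 held 19358 of 48058, 22235 of 49618 and 21168 of 53547 mitochondrially encoded TPM in CD36+, double-negative and PDPN+ cells. The TPM ratios, their order and the TPM shares of this set thus rest in large part on that gene. The mitochondrial ribosomal RNAs behaved differently. mt-Rnr2 stood at 3123, 2553 and 1242 CPM in CD36+, double-negative and PDPN+ cells and mt-Rnr1 at 298, 210 and 129 CPM, which was 0.168, 0.149 and 0.0832 of the counts of the 13 members. Of the 2 library kits, 1 removes ribosomal RNA. Its part in this gap was not tested.

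Genes that serve the chain outside the symbol rule were taken from lists and read by the same limit of 2-fold with at least 10 CPM. The shares of all coding genes beside which these counts stand are 25.0% higher and 28.6% lower in CD36+ against PDPN+, 24.2% and 31.4% in double-negative against PDPN+, and 23.4% and 19.6% in CD36+ against double-negative. The lists are short, so their counts are descriptions and nothing particular to a list is read from them. Complex I assembly factors had 4 of 11 measured genes higher and 1 lower in CD36+ against PDPN+, 3 and 3 of 10 in double-negative against PDPN+, and 6 and 4 of 13 in CD36+ against double-negative. Ndufaf4 was the most abundant, at 121, 147.5 and 236 CPM in CD36+, double-negative and PDPN+ cells. Ndufaf1 stood at 34.4, 14.5 and 4.40 CPM in CD36+, double-negative and PDPN+ cells, in the order CD36+ highest, and Acad9 at 6.64, 13.8 and 68.8 CPM, in the reverse order. Ecsit had 16.4 and 30.9 CPM in the CD36+ and PDPN+ libraries but 0.0792 CPM in the double-negative library.

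Complex IV assembly factors had 5 of 19 higher and 4 lower in CD36+ against PDPN+, 4 and 4 of 19 in double-negative against PDPN+, and 2 and 5 of 19 in CD36+ against double-negative. Cox17, a copper chaperone, stood at 61.9, 32.9 and 20.1 CPM in CD36+, double-negative and PDPN+ cells, in the same order as Cox6c. Complex III factors and Cyc1 had 0 of 5 higher and 3 lower in CD36+ against PDPN+, namely Uqcc1, Uqcc2 and Ttc19, 1 and 3 of 6 in double-negative against PDPN+, and 2 and 1 of 6 in CD36+ against double-negative. Complex V factors had 1 of 2 lower in CD36+ against PDPN+, Atpaf2 at 3.53, 17.6 and 29.8 CPM in CD36+, double-negative and PDPN+ cells.

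Among electron carriers, Cycs, which encodes cytochrome c, stood at 488, 426 and 295 CPM in CD36+, double-negative and PDPN+ cells. Coq9, needed to make ubiquinone, had 0 CPM in the CD36+ library beside 16.8 CPM in double-negative and 19.97 CPM in PDPN+ cells. In that list 0 of 11 genes were higher and 3 lower in CD36+ against PDPN+, 4 and 3 of 13 in double-negative against PDPN+, and 1 and 3 of 12 in CD36+ against double-negative. The main ADP/ATP carrier gene Slc25a5 stood at 1532, 1011 and 1745 CPM in CD36+, double-negative and PDPN+ cells. Ucp2, an inner-membrane carrier, stood at 80.1, 23.0 and 316 CPM in CD36+, double-negative and PDPN+ cells and was the only carrier gene counted as apart in any comparison.

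Tricarboxylic acid cycle genes had 2 of 13 higher and 0 lower in CD36+ against PDPN+, namely Suclg2 and Fh1. Fh1, fumarase, stood at 37.7, 23.6 and 1.49 CPM in CD36+, double-negative and PDPN+ cells, and Mdh2, malate dehydrogenase, at 255, 254 and 334 CPM. Regulators of mitochondrial transcription and biogenesis had 4 of 12 higher and 2 lower in CD36+ against PDPN+, 1 and 5 of 13 in double-negative against PDPN+, and 5 and 2 of 13 in CD36+ against double-negative. Nrf1, whose product binds the NRF1 motif, stood at 41.6, 7.63 and 41.1 CPM in CD36+, double-negative and PDPN+ cells, with the double-negative library low. Gabpb1, the partner of Gabpa, stood at 164, 87.9 and 56.2 CPM in CD36+, double-negative and PDPN+ cells. Tfam, which packages mitochondrial DNA and starts its transcription, was even at 82.2, 65.8 and 74.2 CPM in CD36+, double-negative and PDPN+ cells. The coactivator gene Ppargc1a was at most 0.304 CPM in any library.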

How the data were processed

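Bulk RNA sequencing was used from 3 libraries, 1 for each sorted population, and groups were taken from the labels. Per the labels' protocols, RNA was isolated with either of 2 kits, and libraries were made with a low-input kit or, for ample RNA, a stranded kit that removes ribosomal RNA. Quantification used Salmon 0.9.1 with build mm10, per the submitters' processing notes. Sources used here give no annotation release, strand setting or read filter. The authors deposited estimated counts and TPM per gene, for 52661 gene rows in each library.

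Estimated counts were rounded to whole numbers. Symbols and positions came from GENCODE M21, by identifier without version (52566 rows). TMM factors (edgeR 4.0.16, R 4.3.3) were 0.875, 0.987 and 1.16 for the CD36+, double-negative and PDPN+ libraries, and log2 ratios used a prior count of 2. Totals of 67675778, 51138993 and 63871266 counts put a floor of 3 counts at 0.0507, 0.0594 and 0.0406 CPM. Exact 95% intervals (Clopper-Pearson) accompany single-gene folds. Intervals and floors cover counting error only, since reads without molecular identifiers can be PCR copies. Scales tried beside TMM were total counts, upper quartile, DESeq2 1.42.0 size factors and TPM with a pseudocount of 0.1. Near-identical copies were found with blastn 2.17.0. The scripts (Python 3.11.15) were tested on simulated counts.

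Members and lists were chosen with earlier results of these data known. Named genes were all mitochondrially encoded members, the 2 nuclear members per complex with the highest mean CPM, the 5 largest ratios in each direction of each comparison, the isoform groups, complex II, the complex I core, and of each related list the 3 most abundant genes and up to 6 that were at least 2-fold apart with 20 CPM or more. Atp5c1, Atp5e, Atp5f1, Atp5h, Atp5l, Atp5o, Uqcrc2, Uqcrfs1, Uqcrh and Uqcrq, and of the related lists Coq9, Suclg2, Tfam and Ppargc1a, lie outside this rule and were named after their values were seen. Some genes that the rule takes in are not reported here.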

Additional observations from a re-analysis of the deposited data

How the results depend on the processing

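No paired analysis was possible because each population has 1 library. For the same reason no library was left out, and no setting gives a replicate error. Values in threes belong to CD36+ against PDPN+, double-negative against PDPN+ and CD36+ against double-negative, unless libraries are named.

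Counts of nuclear members at least 2-fold higher were 7, 10 and 1 with TMM. In CD36+ against PDPN+ this count became 2 with total counts, 17 with upper quartile, 2 with TPM, 0 at a 4-fold limit and 1 without members under 300 bases of deposited effective length. Only 21 members had at least 300 bases of deposited effective length, so that last setting drops most of the set. In the CD36+ library that length lay within 1% of the length behind the TPM for only 26 of the 92 members with counts. The length limit therefore need not pick out the short genes. The count in double-negative against PDPN+ became 6, 18, 2, 0 and 4 under the same settings. In CD36+ against double-negative it became 0 at 4-fold and 0 with the length limit. Counts at least 2-fold lower were 7, 5 and 5. In CD36+ against PDPN+ they became 12 with total counts, 13 with TPM, 2 at 4-fold and 3 with the length limit. In double-negative against PDPN+ they became 10 with TPM, 1 at 4-fold and 2 with the length limit. In CD36+ against double-negative they became 0 and 2 under the last 2 settings.

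The nuclear median log2 ratios of 0.19, 0.18 and 0.10 became -0.22, -0.05 and -0.07 with total counts, -0.26, -0.24 and -0.02 with TPM, and 0.24, 0.37 and -0.04 relative to the median of coding genes. Upper quartile gave 0.46 and 0.47 in the comparisons against PDPN+. The mitochondrially encoded medians of 0.23, 0.02 and 0.13 became -0.17, -0.21 and -0.05 with total counts, -0.25, -0.35 and 0.03 with TPM, and 0.28, 0.20 and -0.01 relative to coding genes. Upper quartile gave 0.50 and 0.30 against PDPN+, and a minimum of 1 CPM gave 0.25 in CD36+ against PDPN+. The mitochondrially encoded share was 1.93%, 2.01% and 2.09% of coding counts, and 4.81%, 4.96% and 5.35% of TPM, in CD36+, double-negative and PDPN+ cells. DESeq2 size factors, a prior count of 0.5 and adding or leaving out near-identical copies left these counts and medians about where they were, wherever they were run. The cause of the differences between settings was not tested.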
